A study of Homo sapiens with 3 samples.

Results

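Solute carrier (SLC) genes encode the largest group of membrane transporters of the human genome, numbered by family and member, so that SLC7A5 is member 5 of family 7. The 232 genes described here are those in the authors' gene lists whose symbol is SLC, a family number, A and a member number. They stand among 21948 genes in the lists, belong to 45 families and carry 1070 of 67965 merged regions. SLC2A1 and SLC2A3 were left out by choice. RefSeq holds 345 symbols of the same form, of which 230 had a region in the lists, and the other 115 were not analysed here. The genes were chosen by name among those with a called region, and not by their histone balance.

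The chromatin came from MDA-MB-231 LM2 cells, a lung-metastatic derivative of a triple-negative human breast cancer line, grown without any named treatment. Chromatin immunoprecipitation and sequencing (ChIP-seq) was done once with 6 µg of anti-H3.3 and once with 4 µg of an antibody that binds both H3.1 and H3.2, each on 30 µg of chromatin. An input DNA library was not used. Each antibody has 1 library, so no replicate check and no test was possible, the groups differ in antibody and amount as well as in target, and the sources name LM2 clones without saying how many. The column names of both libraries include shGFP, a usual name for a control hairpin, which no label mentions, so whether such a hairpin was present is not settled. No RNA was measured, so neither the identity of the line nor the activity of a transporter gene was checked.

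Nucleosomes hold one of several forms of histone H3. H3.1 and H3.2 are placed behind the replication fork, while H3.3 is placed at any time in the cell cycle, above all where nucleosomes are lost, as at promoters, enhancers and transcribed genes. Solute carriers move amino acids, sugars, lactate, phosphate, metals and other solutes across the plasma membrane or, in the SLC25 family, across the inner mitochondrial membrane. Tumour cells depend on several of them for nutrient supply and acid export. CpG islands, stretches rich in the dinucleotide CG, mark the promoters of most broadly used genes.

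The value used throughout is the mean pileup height of each library over a region, and the balance is log2((H3.3 + 1)/(H3.1/H3.2 + 1)), so that values above 0 mean more H3.3. A promoter region is the region nearest to the gene's start that overlaps the window from 7500 bases upstream to 2500 bases downstream of it. Gene body regions lie inside the gene outside that window. Of the 232 genes, 175 had a promoter region, 144 had gene body regions and 96 had both, while 9 had only regions upstream or downstream. The regions of SLC genes held an estimated 183636 of 7332517 H3.3 tags and 122919 of 5897938 H3.1/H3.2 tags of all regions. The median promoter region was 2399 bases long and held 110 H3.3 tags and 57.5 H3.1/H3.2 tags, and folds of single regions carry 95% intervals that cover counting error only.

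Of the 232 genes, 180 matched the RefSeq table of promoters, and in 64 the whole window of 250 bases before to 50 bases after the start lay inside the promoter region. Among these 64, the highest and lowest balance with a CpG island and the highest and lowest without one are shown, because they span the range of CG content and of histone balance. All 4 are RefSeq sequences of GRCh38.p14, written 5′ to 3′ on the gene's strand, with each CG in capitals. SLC25A40 lies at chr7:87876311-87876610 on the minus strand, SLC38A9 at chr5:55712286-55712585 on the minus strand, SLC34A3 at chr9:137230507-137230806 on the plus strand and SLC25A47 at chr14:100323089-100323388 on the plus strand.
SLC25A40: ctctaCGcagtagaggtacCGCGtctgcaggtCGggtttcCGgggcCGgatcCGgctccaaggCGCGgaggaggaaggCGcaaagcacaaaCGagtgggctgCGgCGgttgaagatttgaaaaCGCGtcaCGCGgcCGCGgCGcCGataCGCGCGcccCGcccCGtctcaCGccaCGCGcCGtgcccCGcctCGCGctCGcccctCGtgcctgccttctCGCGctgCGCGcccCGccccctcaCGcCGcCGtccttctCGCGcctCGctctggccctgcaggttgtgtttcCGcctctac
SLC38A9: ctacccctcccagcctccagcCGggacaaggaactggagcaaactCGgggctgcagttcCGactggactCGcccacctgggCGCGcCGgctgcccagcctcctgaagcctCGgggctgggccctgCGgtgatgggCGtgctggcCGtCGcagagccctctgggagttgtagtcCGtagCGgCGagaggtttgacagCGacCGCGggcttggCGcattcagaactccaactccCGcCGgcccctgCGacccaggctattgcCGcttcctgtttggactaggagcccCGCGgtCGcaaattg
SLC34A3: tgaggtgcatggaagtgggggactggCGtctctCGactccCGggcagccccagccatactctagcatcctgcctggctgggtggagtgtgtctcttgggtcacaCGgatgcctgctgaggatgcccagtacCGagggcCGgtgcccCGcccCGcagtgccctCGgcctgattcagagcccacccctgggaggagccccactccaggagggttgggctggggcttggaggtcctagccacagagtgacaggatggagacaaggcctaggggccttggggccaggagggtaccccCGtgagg
SLC25A47: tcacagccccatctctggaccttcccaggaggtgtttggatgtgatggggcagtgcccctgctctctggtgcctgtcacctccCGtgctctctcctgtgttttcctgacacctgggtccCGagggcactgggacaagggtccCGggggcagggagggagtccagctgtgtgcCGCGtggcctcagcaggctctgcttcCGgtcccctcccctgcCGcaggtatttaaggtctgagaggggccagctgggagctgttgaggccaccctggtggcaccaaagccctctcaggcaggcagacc

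The SLC25A40 window, from the gene of a mitochondrial glutathione carrier, holds 47 CG and sits in the promoter region with the highest H3.3 share of the 4. Mean heights there were 16.2 with H3.3 and 2.79 with H3.1/H3.2. The SLC38A9 window, from the gene of the lysosomal arginine sensor of the mTORC1 pathway, holds 26 CG. Its region also holds an island, yet the heights were 6.28 with H3.3 and 10.1 with H3.1/H3.2. SLC34A3, a renal phosphate transporter, and SLC25A47, a mitochondrial carrier of liver, have windows with 10 and 7 CG, in regions without an island. Their heights were 18.6 and 7.96 for H3.3, against 4.22 and 3.21 for H3.1/H3.2. Within these 4, CG number and H3.3 balance did not run in parallel.

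Most SLC promoters carried more H3.3 than H3.1/H3.2. Over the 175 promoter regions the median height was 10.9 with H3.3 and 5.64 with H3.1/H3.2, and the balance was above 0 in 153 genes and below 0 in 22. The median balance was 0.91 (quartiles 0.39 and 1.33, 95% order-statistic interval 0.84 to 1.03), close to the 0.89 of 17354 other genes, with a difference of 0.02 (-0.06 to 0.14). A balance of at least 2-fold toward H3.3 was met by 78 SLC promoters (44.6%), where 44.8% of all genes met it. At least 2-fold toward H3.1/H3.2 was met by 1 SLC promoter, where 4.63% of all genes met it. In 131 SLC promoters the whole counting interval of the fold exceeded 1, and in 15 it was under 1, against 67.5% and 15.2% of all genes.

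A region entered the authors' list if it was called in either ChIP. The rule of the calls is not stated, and calls and balances rest on the same 2 libraries, so they are not independent. H3.3 alone was called at 107 SLC promoters, both at 60 and H3.1/H3.2 alone at 8, and the shares over all genes were 57.6%, 31.3% and 11.1%. With only regions called in both kept, 79 SLC genes had a promoter region and their median balance was 0.34, against 0.19 for other genes. No source used here states how the 2 libraries were scaled. The median balance of all 67965 regions was 0.27, and centring on it left 141 of the 175 SLC promoters above 0, with a median of 0.64. Balances between 0 and 0.27 changed sign under this centring, and scaling the libraries to equal tags left 140 promoters above 0. The sign of small balances on either side of 0 therefore depends on the scaling.

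**Figure D1:**
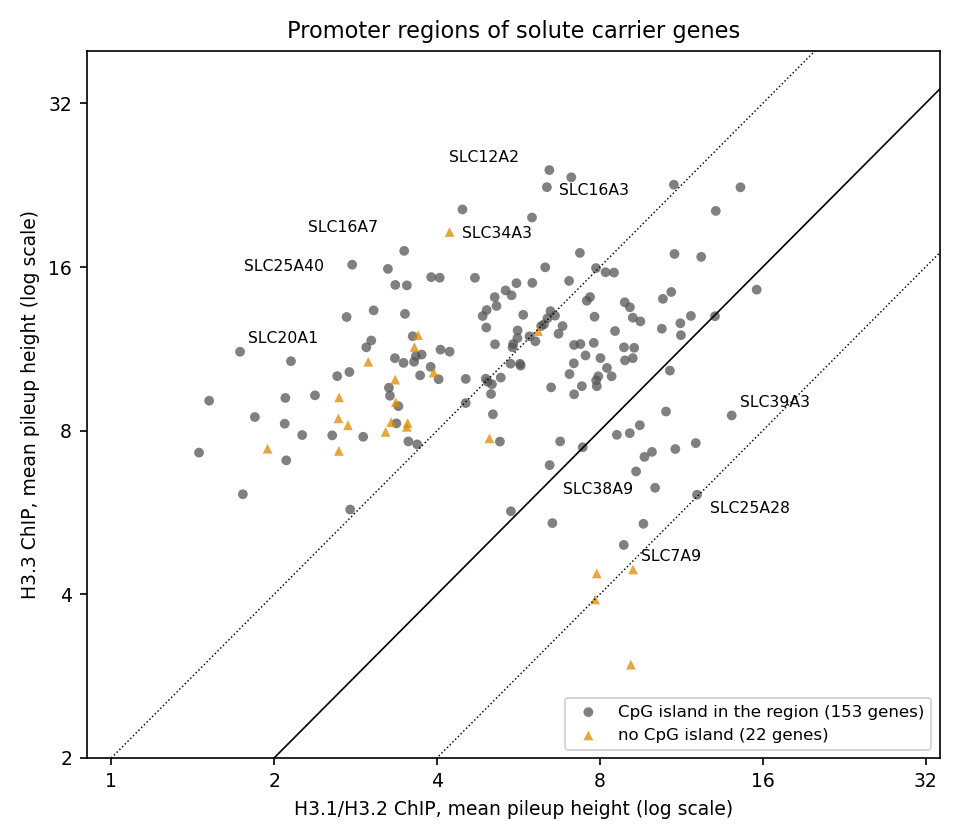
Mean pileup height of H3.3 (vertical, log scale) and H3.1/H3.2 (horizontal, log scale) in the promoter region of 175 solute carrier genes, grey circles with and orange triangles without a CpG island; the solid line is equality and the dotted lines are 2-fold. Most points, 153 of the 175, lie above equality, and SLC25A28 lies below it, at 6.10 with H3.3 and 12.1 with H3.1/H3.2.

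The highest promoter balances belonged to transporters of unrelated solutes. Among promoters at or above the median summed height of all genes, the 10 highest were SLC25A40, SLC16A7, SLC2A2, SLC25A21, SLC34A3, SLC6A6, SLC41A2, SLC25A30, SLC12A2 and SLC3A2. All 10 were called in H3.3 alone, and 9 held an island. Of all 175 SLC promoters, 107 (61.1%) were called in H3.3 alone and 153 (87.4%) had an island. These shares cover promoters of any height, while the 10 came from the 100 taller SLC promoters. Calls in H3.3 alone and this ranking rest on the same 2 libraries, so the calls are no separate evidence. SLC25A40 stood first at 5.8-fold (3.56 to 9.76), in a region (chromosome 7, 87875600 to 87877199) that covers its start and is shared with DBF4, the partner of the CDC7 replication kinase. SLC16A7, which encodes the monocarboxylate transporter MCT2, had heights of 17.1 with H3.3 and 3.48 with H3.1/H3.2 just inside the gene (chromosome 12, 59596000 to 59598399; 4.93-fold, 3.46 to 7.25). SLC2A2, the glucose transporter GLUT2 known from liver and pancreatic beta cells, had 15.9 with H3.3 and 3.25 with H3.1/H3.2 (4.89-fold, 3.18 to 7.76). SLC12A2, the sodium-potassium-chloride cotransporter NKCC1, had the highest H3.3 height of the 10, 24.1 against 6.45 for H3.1/H3.2 (3.74-fold, 2.45 to 5.82). The regions of SLC16A7, SLC2A2 and SLC12A2 did not cover the start.

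At the other end, the 10 lowest of these taller promoters were SLC25A28, SLC39A3, SLC38A9, SLC39A9, SLC31A1, SLC25A44, SLC39A2, SLC35A4, SLC25A3 and SLC17A5. All 10 had an island, 8 were called in both ChIPs, and 4 belonged to carriers of zinc or copper. Of all 175 SLC promoters, 153 (87.4%) had an island and 60 (34.3%) were called in both. The zinc families SLC39 and SLC30 had 11 and 5 of the 175, and the copper family SLC31 had 2. These numbers cover promoters of any height, and those among the 100 taller SLC promoters were not counted. SLC25A28, the iron carrier mitoferrin-2, had heights of 6.10 with H3.3 and 12.1 with H3.1/H3.2 in a region 560 bases upstream of its start (chromosome 10, 99659400 to 99660399; 0.504-fold, 0.303 to 0.808). The zinc importer genes SLC39A3 (0.608-fold, 0.529 to 0.698) and SLC39A9 (0.631-fold, 0.537 to 0.738) and the copper importer gene SLC31A1 (0.671-fold, 0.520 to 0.863) also had intervals below 1. At SLC25A3, the mitochondrial phosphate carrier, and SLC17A5, the lysosomal sialic acid exporter, the intervals included 1. The regions of SLC25A28, SLC39A3, SLC25A44 and SLC39A2 did not cover the start, so these values were not taken at the start itself. SLC39A3 and SLC25A44 had their regions centred 4477 and 3567 bases into the gene, and SLC39A2 7456 bases upstream.

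Promoters without a CpG island were each called in a single ChIP, and most leaned to H3.3. The 153 with an island had a median of 0.88 and the 22 without one a median of 1.19, a difference of -0.31 (-0.55 to 0.02) that reached 0. In other genes the medians were 0.86 with and 0.98 without an island. With peak in place of mean heights the difference among SLC promoters was 0.01, and with only regions called in both it was 0.30, so its sign depends on the measure. Of the 22 without an island, 18 were H3.3 calls, 4 were H3.1/H3.2 calls and none was called in both, and 23% of all such promoters were H3.1/H3.2 calls alone. At least 2-fold toward H3.3 were 16 of these 22 (49.3% over all genes) and 62 of the 153 with an island (43.2% over all genes). H3.3 was the only call at 89 of the 153, beside 55.3% over all genes.

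The promoters without an island on the H3.1/H3.2 side included SLC7A9, SLC44A5 and SLC10A5, and none of these regions covered the start. SLC7A9, the light chain of the renal cystine transporter, had 4.44 with H3.3 and 9.21 with H3.1/H3.2, with a centre 8432 bases upstream in a region also assigned to CEP89. SLC44A5, of the choline transporter family, and SLC10A5, of the bile acid transporter family, were named after their values were seen. They had 3.91 and 4.37 for H3.3, against 7.84 and 7.90 for H3.1/H3.2, also in regions shared with neighbouring genes. Counting only regions that cover the start kept 101 genes, none of them 2-fold toward H3.1/H3.2.

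The median balance was lower in 300-base windows with more CG, with overlapping intervals. The 64 SLC windows inside their promoter region held a median of 23.5 CG, against 24 in 5169 windows of other genes. The median balance was 1.18 in 27 SLC promoters with up to 19 CG, 0.79 in 22 with 20 to 29 CG and 0.51 in 15 with 30 or more. Other genes had 0.93, 0.61 and 0.74 in the same classes, so the lowest value stood in the middle class there. The SLC class with 30 or more CG had heights of 10.6 with H3.3 and 7.44 with H3.1/H3.2, and the class with up to 19 CG had 12.1 with H3.3 and 4.92 with H3.1/H3.2. The intervals of these medians, 0.66 to 1.45, 0.16 to 1.24 and -0.18 to 0.93, overlapped. SLC25A40, with 47 CG and the highest balance, went against this order.

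Core promoter motifs were counted in SLC windows and in the windows of other genes that also lie inside a promoter region. GGGCGG, the core of the GC box, searched on both strands, was in 42 of the 64 windows (65.6%), against 65.3% of the other genes' windows. CCAAT, also on both strands, was in 24 (37.5%), against 36.9%, and TATAAA on both strands in 3 (4.69%), against 5.18%. Over all 27305 promoters in the RefSeq table the shares were 44.6% for GGGCGG, 35.7% for CCAAT and 11.95% for TATAAA. Of the windows printed above, those of SLC25A40 and SLC34A3 hold GGGCGG or its reverse complement.

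Among families, 12 had at least 5 genes with a promoter region, 113 genes in all, and all 12 medians were above 0, also after centring or scaling of the libraries. The medians of 7 families exceeded that of all other genes. The SLC7 family, cationic amino acid transporters and light chains of amino acid exchangers, had 1.38 over 7 genes. The cation-chloride cotransporters of SLC12 had 1.27 (7 genes) and the organic ion transporters of SLC22 had 1.26 (7 genes). Then came SLC38, sodium-coupled neutral amino acid transporters, at 1.11 (9 genes), SLC2, facilitative hexose transporters, at 1.09 (6 genes), SLC35, nucleotide sugar transporters, at 1.08 (5 genes), and SLC16, monocarboxylate transporters, at 1.03 (9 genes). Below these stood the anion exchangers of SLC26 at 0.88 (6 genes), the mitochondrial carriers of SLC25 at 0.82 (36 genes) and the bicarbonate transporters of SLC4 at 0.61 (5 genes). Zinc transporters came last, with 0.51 in the importer family SLC39 (11 genes) and 0.38 in the efflux family SLC30 (5 genes). With so few genes a family, the order of neighbours does not exceed the spread within them, as the SLC7 interval of -0.91 to 1.62 shows.

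**Figure D2:**
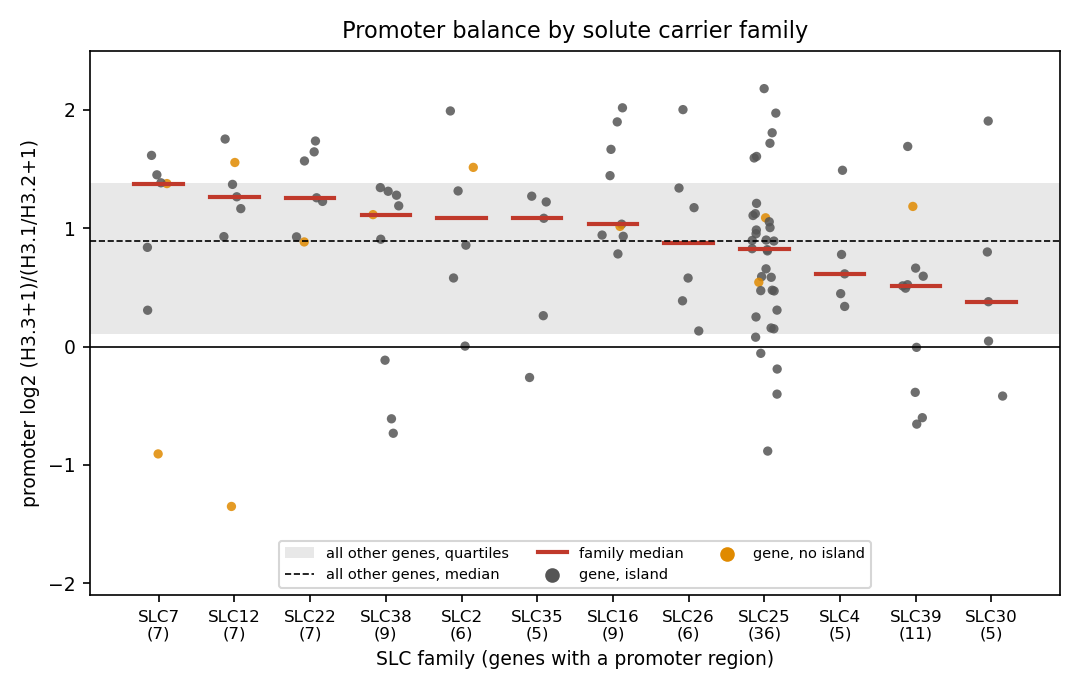
Promoter balance (vertical axis, log2 of the H3.3 to H3.1/H3.2 ratio with 1 added to each height) of single genes in the 12 families with at least 5 promoter genes, gene number in brackets; red bars are family medians and the grey band and dashed line give the quartiles and median of all other genes. Family medians run from 1.38 in SLC7 to 0.38 in SLC30.

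Most amino acid transporter promoters leaned to H3.3. Grouped by substrate, 30 amino acid carrier genes had a promoter median of 1.20, 17 were at least 2-fold toward H3.3 (44.8% over all genes) and 4 were called in H3.1/H3.2 alone (11.1% over all genes). SLC3A2, the heavy chain CD98 shared by several exchangers, had heights of 15.3 with H3.3 and 3.90 with H3.1/H3.2 (3.93-fold, 3.2 to 4.87), in a region that also holds WDR74, SNHG1 and its snoRNA genes. Its partner SLC7A5, the large neutral amino acid transporter LAT1, had 10.7 with H3.3 and 3.47 with H3.1/H3.2 (3.07-fold, 1.91 to 4.99). SLC6A6, the taurine transporter, reached 4.43-fold (3.58 to 5.49), and SLC7A2, the highest of its family, 3.85-fold (1.29 to 12.4) over a short region. SLC1A5, the glutamine transporter ASCT2, was nearer to balance, with 9.66 with H3.3 and 7.41 with H3.1/H3.2 (1.30-fold, 0.874 to 1.96). In the SLC38 family the highest balance was that of SLC38A10 (2.95-fold, 2.43 to 3.58) and the lowest SLC38A7 (0.557-fold, 0.376 to 0.815).

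Transporters of inorganic ions had a promoter median of 1.17 over 26 genes, with the fold interval above 1 in 23 (67.5% over all genes) and below 1 in 1. SLC20A1, the phosphate transporter PiT1, had heights of 11.2 with H3.3 and 1.73 with H3.1/H3.2 (6.46-fold, 3.86 to 11.5; chromosome 2, 112643600 to 112645799). All 5 regions in its start window and both of its gene body regions were called in H3.3 alone, with H3.3 heights from 8.71 to 13.3 and H3.1/H3.2 heights from 1 to 3.50. Its relative SLC20A2 reached 3.88-fold (2.36 to 6.41). SLC26A4, the anion exchanger pendrin of thyroid and inner ear, stood at 5.99-fold (2.88 to 15) at low height, 9.08 with H3.3 and 1.52 with H3.1/H3.2. Its family also held SLC26A6, at 1.10-fold (1.02 to 1.19) in a region of several genes called in both ChIPs. The bicarbonate transporter genes ran from SLC4A11 at 3.31-fold (2.42 to 4.54) to SLC4A2 at 1.30-fold (1.08 to 1.58).

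Metal transporters were the substrate group nearest to balance. Over 21 genes the promoter median was 0.52, with heights of 11 with H3.3 and 7.67 with H3.1/H3.2, 5 genes at least 2-fold toward H3.3 (44.8% over all genes), and 13 called in both ChIPs (31.3% over all genes). Zinc transporters stood at the highest and the lowest balance of the group, with the magnesium and copper carriers SLC41A2 and SLC31A1 close to them. SLC30A4, a zinc exporter of vesicles, reached 4.76-fold (2.19 to 13.3), and SLC39A8, an importer of zinc and manganese, 3.78-fold (2.63 to 5.46). SLC39A3 and SLC30A5, a zinc carrier of the secretory pathway, stood at 0.608-fold (0.529 to 0.698) and 0.721-fold (0.549 to 0.946). SLC39A7, which releases zinc from the endoplasmic reticulum, was even at 13 with H3.3 and 13.1 with H3.1/H3.2. The iron exporter ferroportin, SLC40A1, had 10.1 with H3.3 and 3.72 with H3.1/H3.2 (2.72-fold, 1.27 to 6.25). With regions under 1000 bases left out, or with only regions called in both, the SLC39 family median was -0.01.

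The SLC25 family of mitochondrial carriers is the largest, with 43 genes and 36 promoter regions. Its promoter median of 0.82 stood beside 0.93 in the 139 promoters of the other families, and 34 of its 36 promoters had an island. H3.3 alone was called at 21, both at 14 and H3.1/H3.2 alone at SLC25A28, where the shares over all genes were 57.6%, 31.3% and 11.1%. Besides SLC25A40, the high end held SLC25A21, an oxodicarboxylate carrier, with heights of 20.4 with H3.3 and 4.46 with H3.1/H3.2 (4.58-fold, 2.90 to 7.39), and SLC25A30 (4.21-fold, 2.80 to 6.67). The citrate carrier SLC25A1 was at 1.69-fold (1.24 to 2.32) and the glutamate carrier SLC25A22 at 2.07-fold (1.59 to 2.70). SLC25A44, which brings branched-chain amino acids into mitochondria, was at 0.732-fold (0.613 to 0.870).

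Carriers of sugars and of organic ions leaned to H3.3 at most promoters. The 15 sugar transporter promoters had a median balance of 0.99, 14 fold intervals exceeded 1 (67.5% over all genes), and the exception was SLC2A8 at 7.46 with H3.3 and 7.44 with H3.1/H3.2. In the monocarboxylate family SLC16 all 9 intervals lay above 1, and the balance was lowest at SLC16A13 (1.83-fold, 1.32 to 2.53) and highest at SLC16A7. SLC16A3, the lactate exporter MCT4, had 22.4 with H3.3 and 6.39 with H3.1/H3.2 (3.51-fold, 2.86 to 4.33), in a region that covers its start (chromosome 17, 82224600 to 82228799). In SLC22, the family of organic cation and anion transporters, all 7 intervals lay above 1, from SLC22A20 at 1.98-fold (1.66 to 2.37) to SLC22A31 at 4.6-fold (2.24 to 10.0). Nucleoside and nucleotide sugar transporters had a promoter median of 1.06 over 8 genes and transporters of vitamins and cofactors 0.80 over 7. SLC35A1, the transporter of the sialic acid donor into the Golgi, was the highest of its family at 2.70-fold (1.43 to 5.69) and SLC35A4 the lowest at 0.818-fold (0.739 to 0.907).

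Transporters known from breast cancer and tumour metabolism were taken as a list of 22 genes, of which 21 had a region and 18 a promoter region. Their median balance was 0.95 (quartiles 0.50 and 1.60). At least 2-fold toward H3.3 were 8 of the 18, the fold interval lay above 1 in 13, and none had an interval below 1, beside 44.8%, 67.5% and 15.2% over all genes. H3.3 alone was called at 12 and both at 6, beside 57.6% and 31.3% over all genes. All 18 had an island, as did 87.4% of all SLC promoters and 73.4% of those of other genes. SLC7A11, the cystine importer xCT, and SLC16A1, the lactate transporter MCT1, were among those with no promoter region. SLC16A1 had a single downstream region, with heights of 9.43 with H3.3 and 2.86 with H3.1/H3.2.

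Inside their genes, SLC regions carried more H3.3 than those of other genes. Over 144 genes with gene body regions the median balance was 0.77 (quartiles -0.49 and 1.34, interval 0.48 to 0.98), against 0.10 over 10448 other genes, a difference of 0.67 (0.37 to 0.89). The body was above 0 in 98 of the 144 (68.1%), where 51.9% of all genes were. At least 2-fold toward H3.3 were 59, where 30.2% of all genes were, and at least 2-fold toward H3.1/H3.2 were 15 (10.4%), where 16.2% were. Counted by region and without any region that holds the start window of another gene, 421 SLC body regions had a median of 0.35, against -0.49 in 36912 regions of other genes. Of the 421, 131 were at least 2-fold toward H3.3 (19.9% over all genes) and 73 toward H3.1/H3.2 (23.5% over all genes). The only call was H3.3 at 200 of them and H3.1/H3.2 at 164, and over all genes the shares were 32.4% and 53.8%. With only regions called in both, the medians per gene were 0.16 for 43 SLC genes and -0.04 for other genes.

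Genes with and without a promoter region differed in their bodies. The 48 SLC genes with a body but no promoter region had a median body balance of 1.27 (1.07 to 1.35), against 1.08 (1.05 to 1.12) in 2433 other genes of that kind, and these intervals overlapped. The 96 SLC genes with both had 0.27 (-0.07 to 0.65), against -0.17 (-0.21 to -0.12) in 8015 other genes. The class without a promoter region took 48 of 144 SLC genes, against 2433 of 10448 others.

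Along the gene, the median H3.3 height was above that of H3.1/H3.2 in every distance class of SLC genes. In regions centred up to 2500 bases upstream of the start the median heights were 10.5 with H3.3 and 4.96 with H3.1/H3.2 in SLC genes, and 10.0 and 5.06 in other genes. Between 2500 and 10000 bases into the gene SLC genes had 8.74 with H3.3 and 6.69 with H3.1/H3.2, while other genes had 7.23 and 7.33. Between 20000 and 50000 bases SLC genes had 7.92 with H3.3 and 6.62 with H3.1/H3.2, while in other genes H3.1/H3.2 was the higher, at 5.94 with H3.3 and 7.52 with H3.1/H3.2. Beyond 100000 bases SLC genes had 7.96 with H3.3 and 4.08 with H3.1/H3.2, over 39 regions of which 11 lay in SLC39A11 alone.

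**Figure D3:**
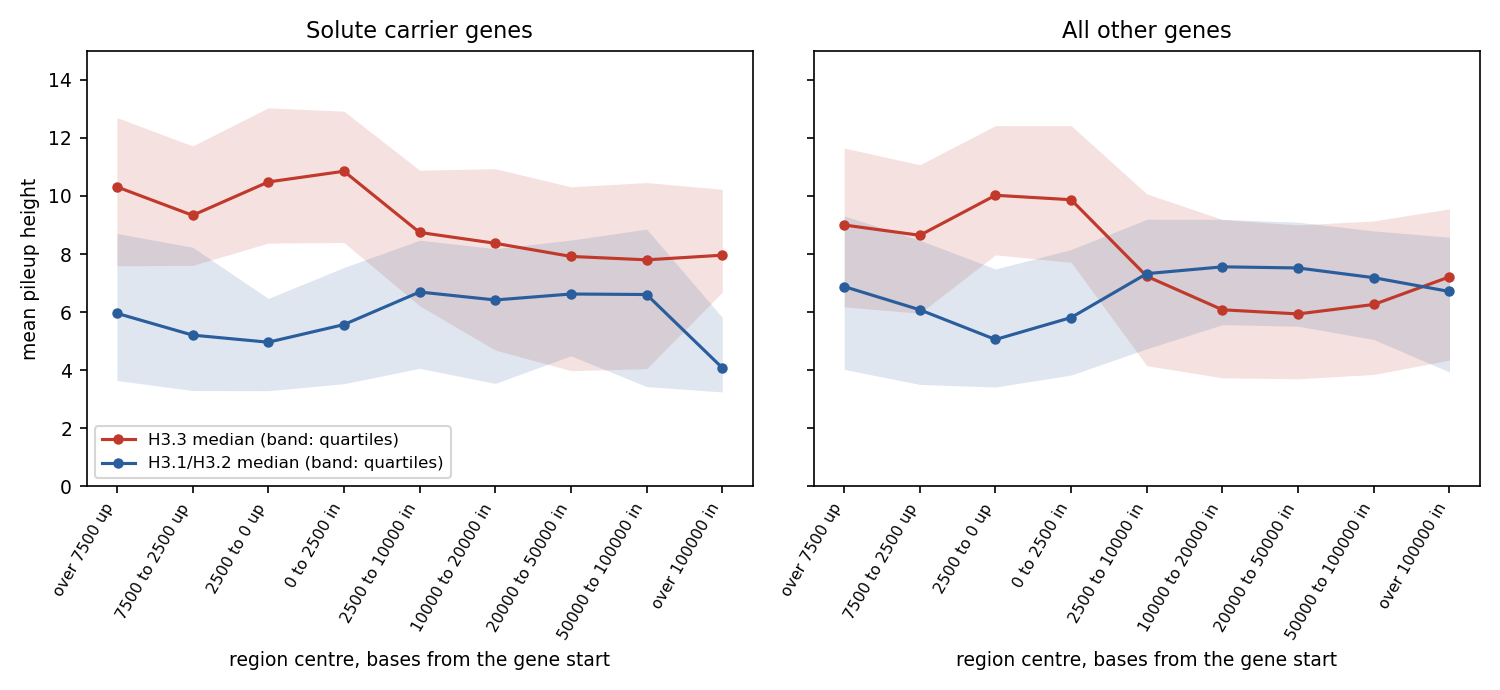
Median mean pileup height (vertical axis, from 0) of H3.3 in red and H3.1/H3.2 in blue by distance of the region centre from the gene start (up, upstream; in, into the gene), with quartile bands over regions, for solute carrier genes (left) and all other genes (right). In other genes the H3.1/H3.2 median is the higher between 2500 and 100000 bases into the gene, and in solute carrier genes the H3.3 median is the higher in every class, for instance at 7.92 against 6.62 between 20000 and 50000 bases.

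The mitochondrial carriers did not share the H3.3-leaning bodies. The 26 SLC25 genes with body regions had a median of -0.35 (-0.85 to 0.20), with 10 above 0, 3 at least 2-fold toward H3.3 (30.2% over all genes) and 6 at least 2-fold toward H3.1/H3.2 (16.2% over all genes). The 118 genes of the other families had 0.94 (0.74 to 1.18), with 88 above 0, 56 at least 2-fold toward H3.3 and 9 toward H3.1/H3.2. Body regions without any start window repeated the split, with heights of 5.16 with H3.3 and 7.83 with H3.1/H3.2 in 65 SLC25 regions, and 8.12 and 6.17 in 356 regions of the other families. The 2 sets differ in make-up, as 22 of the 26 SLC25 genes and 74 of the 118 others also had a promoter region. Over all SLC genes the body median was 0.27 with a promoter region and 1.27 without. SLC25 and the other families were not compared within these classes. By substrate, body medians were 1.28 for sugars (13 genes, 12 above 0), 1.20 for inorganic ions (27 genes), 0.96 for organic ions and lipids (22 genes), 0.76 for amino acids (29 genes) and -0.07 for metals (15 genes). Among single families with at least 5 such genes, SLC22 had 1.46 with 8 of 8 above 0, SLC9, sodium-proton exchangers, had 1.19, SLC7 1.17, SLC12 1.06 and SLC39 0.82, while SLC38 had -0.16 and SLC16 -0.58.

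Some single genes leaned to the same side in all their body regions. SLC7A5 had 5 body regions with a median balance of 1.72 and single regions ranging from 1.60 to 2.23. Their heights were 11.8 to 23.01 with H3.3 and 3.08 to 6.27 with H3.1/H3.2. Among genes with at least 2 body regions, the other highest bodies were those of SLC25A18, a mitochondrial glutamate carrier (1.74, 5 regions), SLC13A4, a sulfate transporter (1.72, 2 regions), SLC12A7, the potassium-chloride cotransporter KCC4 (1.70, 7 regions), and SLC2A12, the glucose transporter GLUT12 (1.64, 2 regions). SLC25A24, a mitochondrial carrier of ATP and phosphate, had 13 body regions at a median of -1.19, 12 of them called in H3.1/H3.2 alone. Its single body regions ranged from -1.99 to -0.62. In the promoter region nearest its start, centred 641 bases upstream and not covering it, the heights were 9.95 with H3.3 and 4.03 with H3.1/H3.2. The lowest bodies among genes with at least 2 regions also included SLC36A4, an amino acid transporter (-1.42, 2 regions), SLC25A38, a mitochondrial glycine carrier needed for heme synthesis (-1.23, 2 regions), SLC16A7 (-1.18, 2 regions) and SLC30A7, a zinc carrier of the Golgi (-1.15, 8 regions).

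Some genes with many body regions were added after their values were seen. SLC19A1, the reduced folate carrier, had 13 body regions, 9 of them with an island, at a median of 1.30 and all above 0. SLC39A11, a zinc importer, had 11 body regions, all called in H3.3 alone, at a median of 1.18. SLC7A1, the arginine transporter CAT1, had the most body regions, 20, with a median of -0.90 and 15 called in H3.1/H3.2 alone. SLC38A1, the glutamine transporter SNAT1 and a member of the tumour list, had 18 at -0.93, 17 of them called in H3.1/H3.2 alone. SLC4A7, a sodium bicarbonate transporter of the same list, had 14 at -0.84.

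**Figure D4:**
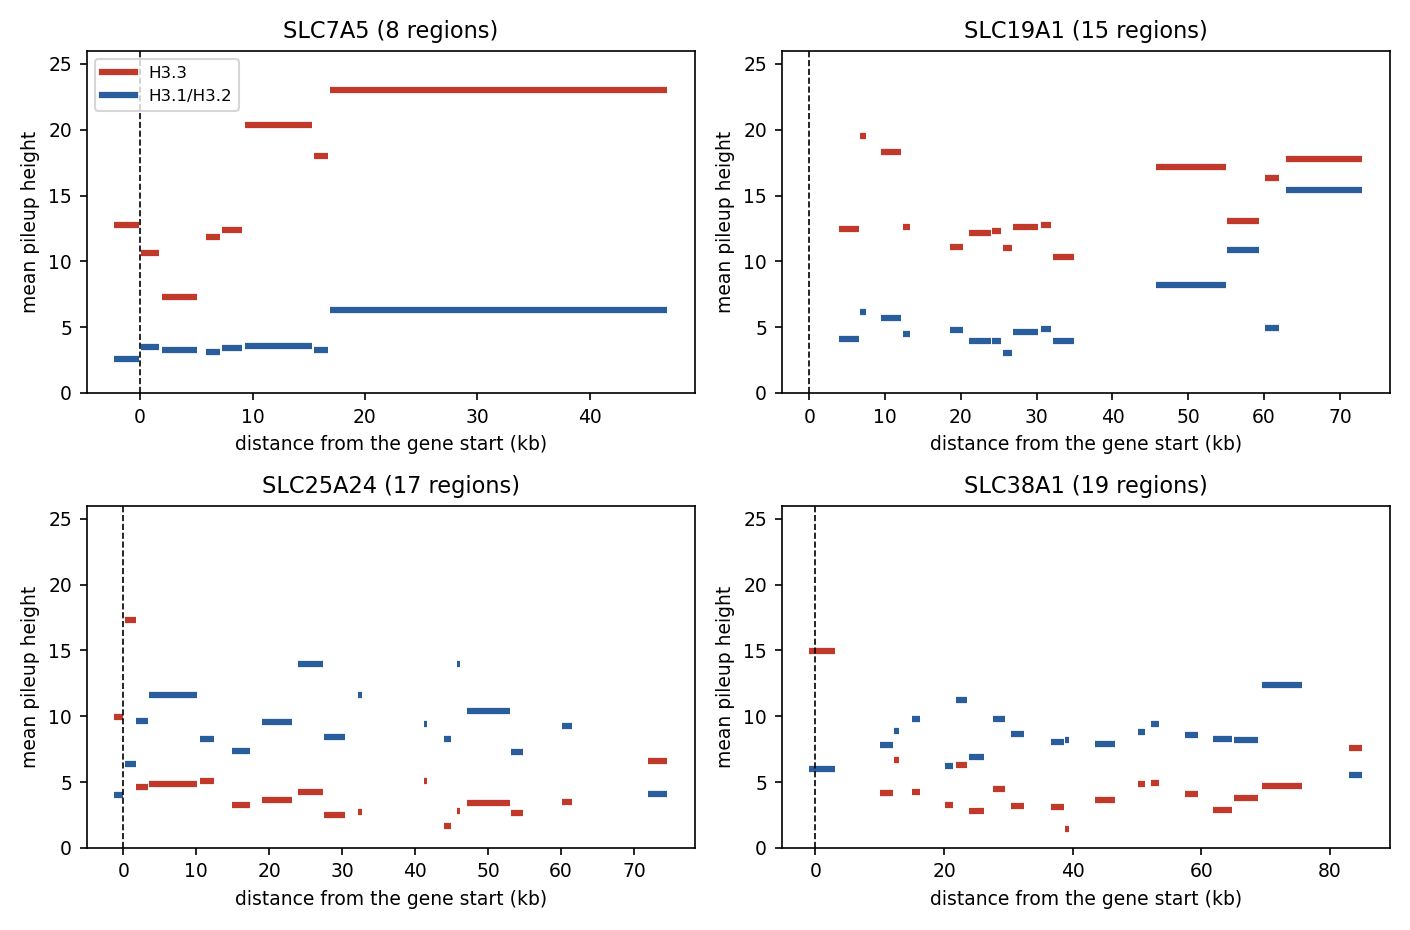
Regions of SLC7A5, SLC19A1, SLC25A24 and SLC38A1 drawn to scale by distance from the gene start (horizontal axis, kb; dashed line, start), with mean pileup height (vertical axis, from 0) of H3.3 in red and H3.1/H3.2 in blue. H3.3 is the higher in every region of SLC7A5 and SLC19A1, and in SLC25A24 and SLC38A1 it is the higher in the region nearest the start and H3.1/H3.2 along most of the body, where 12 of 13 and 17 of 18 regions were called in H3.1/H3.2 alone.

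Within a gene, the promoter usually had more H3.3 than the body. In the 96 genes with both, the median of promoter minus body was 0.46 (0.19 to 0.74), and the promoter was the higher in 64, while it was in 71.2% of all genes with both. In 30 genes the promoter value was positive and the body value negative, in 6 the reverse held, both were positive in 51 and both negative in 9. Both values come from the same libraries, so their difference does not depend on a centring. In SLC25 the promoter was the higher in 18 of 22 genes, with a median difference of 0.83, and in the other families in 46 of 74, with 0.31. Where the promoter had an island the median difference was 0.62 over 85 genes, and where it had none it was -0.07 over 11 genes. With only regions called in both, 19 genes had both values and the median difference was 0.02.

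The widest gaps were at SLC12A2, SLC16A7, SLC25A40, SLC20A2 and SLC25A24. At SLC12A2 the promoter balance was 1.75 and the body balance -2.16, which came from 1 region of 799 bases with heights of 1 with H3.3 and 7.92 with H3.1/H3.2. A second promoter region of SLC12A2 just inside the gene was near balance, at 11 with H3.3 and 9.48 with H3.1/H3.2. SLC16A7 and SLC25A40 had gaps of 3.2 and 3.13, each with 2 body regions called in H3.1/H3.2 alone. The gap ran the other way at SLC7A9 (-2.08), SLC38A9 (-1.65), SLC25A34 (-1.37), SLC25A28 (-1.0) and SLC25A53 (-0.95). At SLC38A9 the body value rested on 1 region of 399 bases, with heights of 7.08 with H3.3 and 2.92 with H3.1/H3.2 and a fold interval of 0.870 to 9.31 that included 1.

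**Figure D5:**
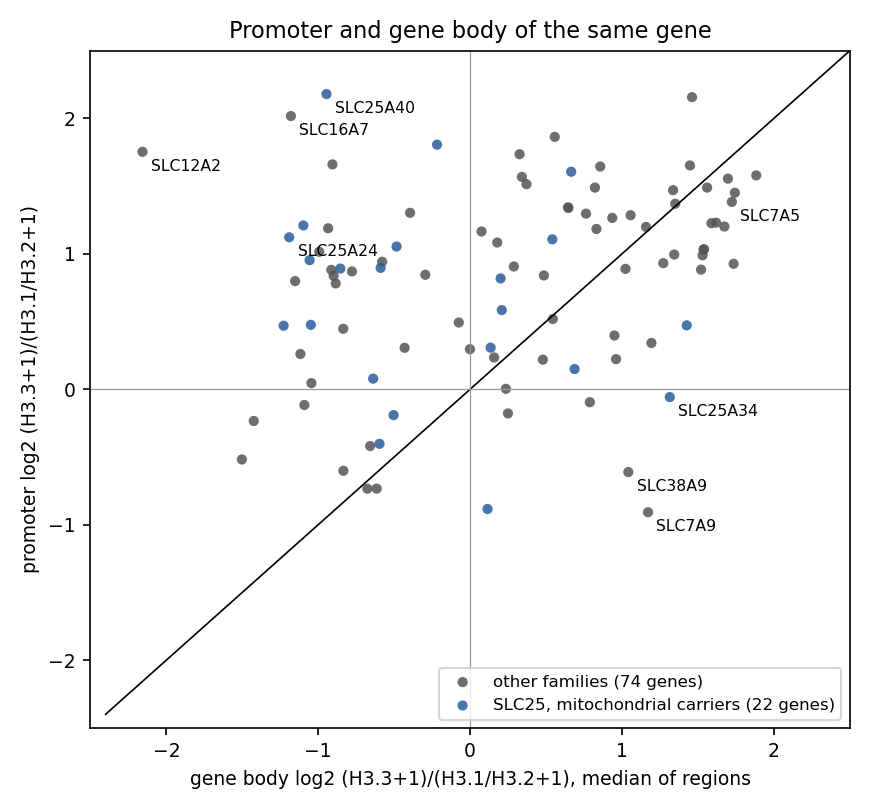
Promoter balance (vertical) against gene body balance (horizontal), both as log2 of the H3.3 to H3.1/H3.2 ratio with 1 added to each height, for the 96 solute carrier genes with both, SLC25 in blue and other families in grey; the diagonal marks equal values. The promoter is the higher in 64 genes, above the diagonal, and SLC25 genes lie mostly at body values below 0.

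Body regions with a CpG island had a higher balance than those without, counted by region. The 72 SLC body regions with an island had a median balance of 1.08 and heights of 11.3 with H3.3 and 4.83 with H3.1/H3.2. The 420 without one had 0.15, with heights of 7.27 with H3.3 and 6.60 with H3.1/H3.2, a difference of 0.93 (0.60 to 1.23). Of the 72, 9 lay in SLC19A1. Counted by gene, the difference was not clear of 0: the body median was 0.94 in 41 genes with an island region and 0.56 in 103 without, a difference of 0.38 (-0.20 to 1.0). Leaving out regions that hold another gene's start window gave 1.09 over 52 regions with an island and 0.05 over 369 without, a difference of 1.04 (0.64 to 1.41). The same kind of region in other genes had 0.77 with and -0.55 without an island, a difference of 1.32. Of the 52 SLC regions, H3.3 was the only call at 37 and H3.1/H3.2 at 2, and 13 were called in both, while in other genes the shares were 55.6%, 12.2% and 32.1%. Of 325 promoter regions, counted by region rather than by gene, H3.3 was the only call at 199 (56.6% over all genes) and H3.1/H3.2 at 33 (19.9% over all genes). The 325 promoter regions exceeded 492 body regions by 0.46 (0.32 to 0.72), and among those without an island by 0.87 (0.50 to 1.19). Among regions with an island the difference was -0.18 (-0.33 to 0.04), with 214 promoter regions at 0.90 and the 72 body regions at 1.08. Intervals over regions count the regions of 1 gene as separate, for instance the 20 body regions of SLC7A1, so they can be too narrow.

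The longest regions at SLC genes differed in balance. The longest, of 43199 bases, lay upstream of SLC25A10, the mitochondrial dicarboxylate carrier (chromosome 17, 81662000 to 81705199), reached its start window but not its start, was assigned to 8 genes and was close to even, at 18.3 with H3.3 and 16.8 with H3.1/H3.2. The region of 29999 bases in the body of SLC7A5 (chromosome 16, 87822600 to 87852599) had 23.01 with H3.3 and 6.27 with H3.1/H3.2 (3.67-fold, 3.40 to 3.96), and was called in both ChIPs. The others were 34399 bases at the zinc importer gene SLC39A4 (1.55-fold, 1.46 to 1.64), 28599 bases in SLC5A10, of the sodium-glucose cotransporter family (1.66-fold, 1.54 to 1.80), and 28399 bases at SLC25A45 (2.15-fold, 1.99 to 2.33).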

How the data were processed

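ChIP-seq values of 1 H3.3 and 1 H3.1/H3.2 library of MDA-MB-231 LM2 cells were used. Per the submitters' processing notes the tools were BWA and SICER and the build hg38; no source used here states their versions, their settings or how the input was used. The authors deposited a table of merged regions that holds, per the file headers, each library's pileup signal (mean and peak height), marks for each ChIP called, CpG islands and assigned genes. The deposited log2 ratio equals the ratio of mean heights without a pseudocount, and the deposited score of tags relates height and length by a constant, from which tags per library were estimated. If heights had been scaled, tags and intervals would be off by that factor. Region coordinates are as deposited.

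Balances used a pseudocount of 1, which understates the ratio of low regions, over chromosomes 1 to 22 and X (4 regions on Y left out). For all 36810 single-gene regions (100%) this start window matched the deposited promoter mark. Gene body values are medians over a gene's regions. Neighbouring genes can share a region: 125 of the 175 promoter regions were assigned to several genes, but no 2 SLC genes shared theirs. Folds carry exact conditional 95% intervals on tags and medians order-statistic 95% intervals over genes or regions, and a difference combines both widths in quadrature. Reads had no molecular identifiers, so the intervals hold nothing but counting error or variation among genes. The whole depth of the libraries is unknown.

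No comparison was tested. A balance of 2-fold or more was counted as called, and shares over all genes include the SLC genes. Only the fold intervals were tried on simulated tags, which were drawn with counting error alone. Their coverage was largely set by that choice, so it does not show how the intervals hold in real data. The intervals of medians and of differences were not simulated. The members, the lists and the family substrates were chosen with earlier results of these data known. Named were the 10 highest and lowest promoters of sufficient height, the 5 highest and lowest bodies with at least 2 regions, the 5 largest and smallest promoter minus body differences, the highest and lowest promoter of each family of at least 5, a list of 22 transporters of tumour metabolism, and the genes with the 5 longest regions. Some genes named by this rule are not reported here. Python 3.11.15, pandas 2.3.3, SciPy 1.17.1, NumPy 2.4.6 and matplotlib 3.10.9 were used.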

Additional observations from a re-analysis of the deposited data

How the results depend on the processing

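Of 119 comparisons of a main result with an alternative, 81 counted as kept, 36 moved and 2 changed sign. Medians and differences counted as kept if they stayed within their interval. Counts have no interval and were compared by their ratio. The difference of promoters with and without a CpG island was 0.0123 with peak heights and 0.30 with only regions called in both, where 8 genes had no island. A pseudocount of 10 shrank the promoter median to 0.46, the body median to 0.36, the body island difference to 0.42, the difference of promoter and body regions to 0.22 and the 2-fold counts to 5 toward H3.3 and 0 toward H3.1/H3.2. A pseudocount of 0.1 gave 2 promoters toward H3.1/H3.2. Regions of at least 1000 bases gave 0, and regions at or above the median height gave 0, a body island difference of 0.49, a promoter and body difference of 0.25, and 4 of 7 families above other genes. Centring on all regions gave a promoter median of 0.64 with 6 promoters toward H3.1/H3.2, and scaling to equal tags 0.63 with 7, while 53 were 2-fold toward H3.3 under each. Bodies above 0 were then 61.8% instead of 68.1%, and promoters above 0 were 80.6% and 80.0% instead of 87.4%.

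Requiring a centre within 1000 bases of the start left 91 promoters, 41 of them 2-fold toward H3.3 and 0 toward H3.1/H3.2, and 1 of 4 families above other genes. The median over the window gave 0 toward H3.1/H3.2. Regions of a single gene gave a body island difference of 1.41, a promoter and body difference of 0.84, 28 promoters toward H3.3 and 0 toward H3.1/H3.2, and 0 of 1 family. A 1.5-fold rule gave 116 toward H3.3 and 10 toward H3.1/H3.2, and a 3-fold rule 25 and 0. With only regions called in both, the promoter median was 0.34, the body median 0.16, promoter minus body 0.016, the body island difference 0.37, the promoter and body difference 0.19, the counts 8 and 0, and 2 of 3 families lay above. The SLC39 promoter median was -0.0072 in that setting and with regions of at least 1000 bases. The SLC7A11 body, -1.0 over 7 regions, was 1.89 at or above the median height, where fewer regions remained. The alternatives, without regions holding other starts, without SLC25 and with regions covering the start, were chosen after seeing the data and moved none of the medians and differences recomputed under them. Among promoter regions that cover the start, 41 of 101 were 2-fold toward H3.3 and 0 toward H3.1/H3.2. The cause of each shift was not tested.

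No paired analysis was possible because each antibody had 1 library. Leaving out a library leaves no ratio. Depth limits single short regions, as the fold intervals show.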

Other observations

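Regions assigned to SLC genes that lie neither in the start window nor inside the gene numbered 253, with a median balance of 0.62, and 135 of them hold the start window of another gene. The 118 that hold none had heights of 8.59 with H3.3 and 6.97 with H3.1/H3.2 and a median balance of 0.36, and some of them can lie inside neighbouring genes.

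SLC7A11 had body regions of both kinds. The 5 called in H3.1/H3.2 alone had H3.3 heights of 2.56 to 4.57 and H3.1/H3.2 heights of 6.12 to 8.39. The 2 called in H3.3 alone lay 70861 and 88661 bases into the gene, with 13.5 and 8.69 for H3.3, against 2.93 and 4.39 for H3.1/H3.2.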
